A study of Mus musculus with 2 samples.

Results

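Lung endothelial cells (ECs) with little or no RNA of Ednrb and Apln were examined in the lung Nes-GFP+ single-cell RNA sequencing (scRNA-seq) library. The 312 cells were chosen by measured values. A cell entered the endothelial gate when its unique molecular identifiers (UMIs, each standing for 1 captured RNA molecule) of Cldn5, Pecam1 and Cdh5 summed to at least 5 and exceeded both the sum of 4 pericyte genes (Cox4i2, Higd1b, Fam162b and Pdgfrb) and the sum of 4 fibroblast genes (Npnt, Tcf21, Inmt and Col13a1), with at most 1 UMI of the dividing-cell genes Mki67 and Top2a. Of 5608 lung cells kept, 563 passed this gate (10.0%). Of these, 312 held at most 1 UMI of Ednrb and Apln together and are called low Ednrb and Apln ECs here, and 251 held 2 or more and are called high. The low cells were 55.4% of the gate (95% exact Clopper-Pearson interval 51.2 to 59.6%) and 5.56% of the lung cells kept.

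The cells came from Nestin-GFP transgenic mice, in which GFP is made under Nestin regulatory elements, so that the sort took any cell in which these elements were active and not a lineage. The labels gave the strain as C57BL/6 and the age as about 6 weeks for both groups. The study's methods instead give wild-type CD1 or CD1/C3H animals as partners in breeding. The lung group and the brain group were untreated tissues, each made into 1 library. Each library was 1 biological replicate, and how many animals went into it was not given in the sources used here. With 1 library per tissue there are no replicates and no test between tissues, and intervals below cover counting error only. Xist UMIs were found in 176 of the 312 low cells, UMIs of a Y-linked gene in 11, and both in 0 cells.

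Lung capillaries hold 2 kinds of EC. Aerocytes are large, thin cells of the gas exchange surface that make Car4, Ednrb and Apln, and general capillary cells are smaller, make Gpihbp1, Plvap, Kit and the apelin receptor Aplnr, and serve as the source of new capillary cells. Ednrb is a receptor of endothelins and Apln is the peptide apelin. Arterial ECs are marked by the gap junction proteins Gja5 and Gja4, the Notch ligand Dll4 and ephrin-B2 (Efnb2), and venous ECs by the nuclear receptor Nr2f2. The gate genes encode a tight junction protein (Cldn5), an adhesion molecule of endothelial contacts (Pecam1) and VE-cadherin (Cdh5).

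The distribution of Ednrb and Apln in the gate had no gap at the limit. Ednrb and Apln summed to 0 UMIs in 231 cells and to 1 UMI in 81 cells, just inside the limit. Just outside it, 48 cells held 2 UMIs and 33 held 3. The highest cell held 35 UMIs. Nearly all of this signal was Ednrb, with 1712 Ednrb UMIs in the high cells (1117 CPM, that is UMIs scaled to the group's total) and 74 in the low cells (42.5 CPM), where 1 UMI was 0.574 CPM. Apln gave 21 UMIs in 12 high cells and 7 UMIs in 7 low cells. These values chose the groups and are not a result. The cells with 1 UMI and with 2 UMIs had medians of 5604 and 5316 UMIs, with Gpihbp1 at 625 and 393 CPM, Fbln5 at 1367 and 2161 CPM and Nes at 224 and 174 CPM. Sema3c fell from 232 to 25.9 CPM and Scn7a from 545 to 148 CPM between them. In the cells with 3 UMIs Sema3c stayed low at 60.2 CPM, while Scn7a was back at 507 CPM. Gpihbp1 (517 CPM) and Fbln5 (1822 CPM) lay there between their levels at 1 and 2 UMIs.

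**Figure D1:**
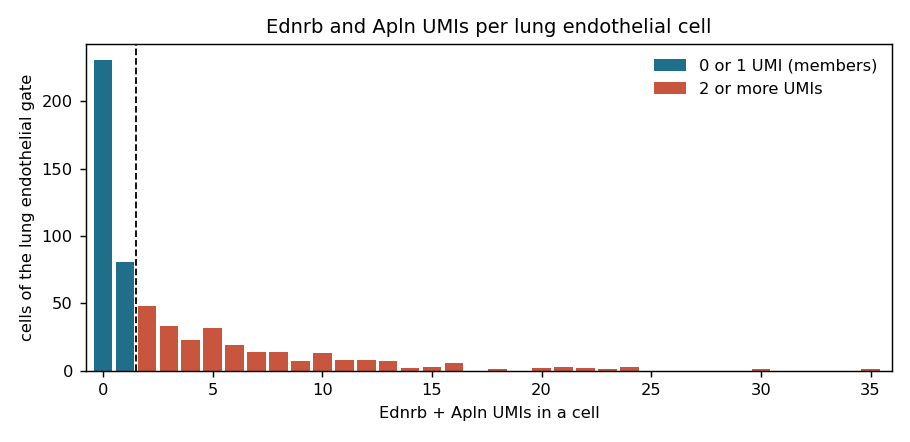
Histogram of the summed Ednrb and Apln UMIs per cell (x axis) against the number of cells of the lung endothelial gate (y axis), with the limit as a dashed line. The counts fall from 231 cells at 0 UMIs and 81 at 1 UMI to 48 at 2 UMIs with no gap, and reach 35 UMIs.

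The low cells held 1741758 UMIs in all, with 1044 to 12431 UMIs per cell (median 5332), 2366 genes at the median and 4.20% mitochondrial UMIs at the median. The high cells held 1532589 UMIs with a median of 5675 per cell. Scrublet called 5 low and 8 high cells as doublets. Of 15 cell barcodes present in both libraries, 1 belonged to a low cell. The endothelial label was checked on genes that the gate had not used. Such pan-endothelial genes, 22 in all, summed to 15690 CPM in the low cells against 975 CPM in the 5015 non-endothelial lung cells. The non-endothelial cells are those with fewer than 5 UMIs of the gate genes. The markers Plvap and Gpihbp1, which the gate had not used either, stood at 910 and 590 CPM in the low cells against 12.5 and 0.954 CPM in the non-endothelial cells. Egfl7, a secreted endothelial factor, was at 2366 CPM, Ramp2, a partner of the adrenomedullin receptor Calcrl, at 2461 CPM and Calcrl itself at 1581 CPM.

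Markers of other cells were low in the low Ednrb and Apln ECs. The 10 pericyte genes summed to 214 CPM against 7817 CPM in the non-endothelial cells, the 10 fibroblast genes to 1324 against 26156 CPM and the 7 smooth muscle genes to 146 against 4019 CPM. The 10 epithelial genes gave 16 UMIs in all, the 8 neural and Schwann cell genes 21 UMIs and the 4 mesothelial genes 1 UMI. The defining leukocyte gene Ptprc and the Schwann cell gene Sox10 were at 0 UMIs. Of the 45 UMIs of the 10 immune genes, 39 lay in 1 cell. Of the 2306 fibroblast UMIs, 1 cell held 520 and another 348, against 2 UMIs in the median low cell, and without these 2 cells the list was at 837 CPM. Such single cells are named below where a value rests on them.

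The low cells were set against the non-endothelial cells of their own library to see what they carried beyond the gate. A gene was compared when its mean CPM over both groups was at least 50 and it was no gate gene, and was called when the ratio of its CPM was at least 2 or at most 0.5. Of 3782 genes compared, 527 (13.9%) were called higher in the low cells and 464 (12.3%) lower. Because the gate picked cells by endothelial genes, this comparison is a description. A gene low in 1 group passed the limit on mean CPM through the other group. Counts of calls by list rest in part on that limit, here and below. The highest ratios belonged to Gpihbp1, which anchors lipoprotein lipase in capillaries (590 against 0.954 CPM, 618-fold, interval 423 to 943), Cyyr1 (262 against 0.459 CPM), Myct1 (343 against 0.672 CPM) and Lyve1, a hyaluronan receptor best known from lymphatic vessels (659 against 1.31 CPM, 504-fold, interval 363 to 719). Rbp7, Clec1a, Ctla2a, Stmn2, Esm1, Icam2, Mfng and Rasgrp3 followed, with ratios from 384 down to 270. Of the 355 Rbp7 UMIs of the low cells, 341 lay in the cluster led by Fabp4 and Rbp7 that is described below. The other low cells were at 9.17 CPM of Rbp7, against 0.530 CPM in the non-endothelial cells. Stmn2, a regulator of microtubules best known from neurons, stood at 1381 CPM, while the list of neural and Schwann cell genes was at 12.1 CPM. The lowest ratios belonged to Hba-a2, Sftpc, Fxyd1, Lipg, Ccl21a, Prss35, Plxdc2, Hbb-bt, Cpa1, Ifitm1, Gm26580 and Nkain4, all between 0.00736 and 0.0184. Sftpc is the surfactant protein of alveolar type II cells, and Ccl21a, a chemokine of lymphatic ECs, gave 3 UMIs in the low cells.

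By vessel type, the low cells carried general capillary and arterial genes together. Of 14 general capillary genes, 12 were compared with the non-endothelial cells, and 11 of these were called higher and 1 (Itga1) lower. Hpgd, which breaks down prostaglandins, was at 1718 CPM against 17.5, Cd93 at 1409 against 7.60, Ptprb at 1845 against 7.60 and Aplnr at 197 against 0.742 CPM. Of 14 arterial genes, 13 were compared, and 11 were called higher and 1 (Htra1) lower. Gja4 was at 1017 CPM against 76.9, Efnb2 at 947 against 31.4, Hey1, a Notch target, at 419 against 6.43, Dll4 at 411 against 2.26, Gja5 at 386 against 1.87 and the transcription factor Sox17 at 695 against 2.97 CPM. Fbln5, an elastic fibre protein, was at 1488 against 175 CPM.

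Aerocyte, venous and lymphatic lists were mixed. Car4, the membrane carbonic anhydrase that marks aerocytes, was at 39.6 CPM, with UMIs in 18 of 312 cells. Of 12 aerocyte genes, 8 were compared and 3 were called higher (Kdr, Cyp4b1 and Tbx3) and 3 lower (Tbx2, Fibin and Emp2), and Kdr is a VEGF receptor of ECs in general. Igfbp7, the most abundant gene of that list, was at 1439 against 1166 CPM and not called. Of 12 venous genes, 3 were compared. Vwf, the clotting factor carrier, was called higher (733 against 4.98 CPM), Ephb4, the receptor of ephrin-B2, was called higher (148 against 23.2 CPM) and Nr2f2 lower (38.5 against 912 CPM). Slc6a2 gave 0 UMIs, for which 3 UMIs, the upper limit that a count of 0 allows, would be 1.72 CPM. The lymphatic master gene Prox1 gave 3 UMIs, Pdpn 4 and Reln 0. Of the lymphatic list 2 genes were compared, Lyve1 being called higher (659 against 1.31 CPM) and Ccl21a lower, and the receptor Flt4 fell below the limit for comparison at 45.4 CPM. Summed CPM alone does not tell fewer cells with a gene from less RNA of it per cell. For some of these genes the shares of cells are given below.

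**Figure D2:**
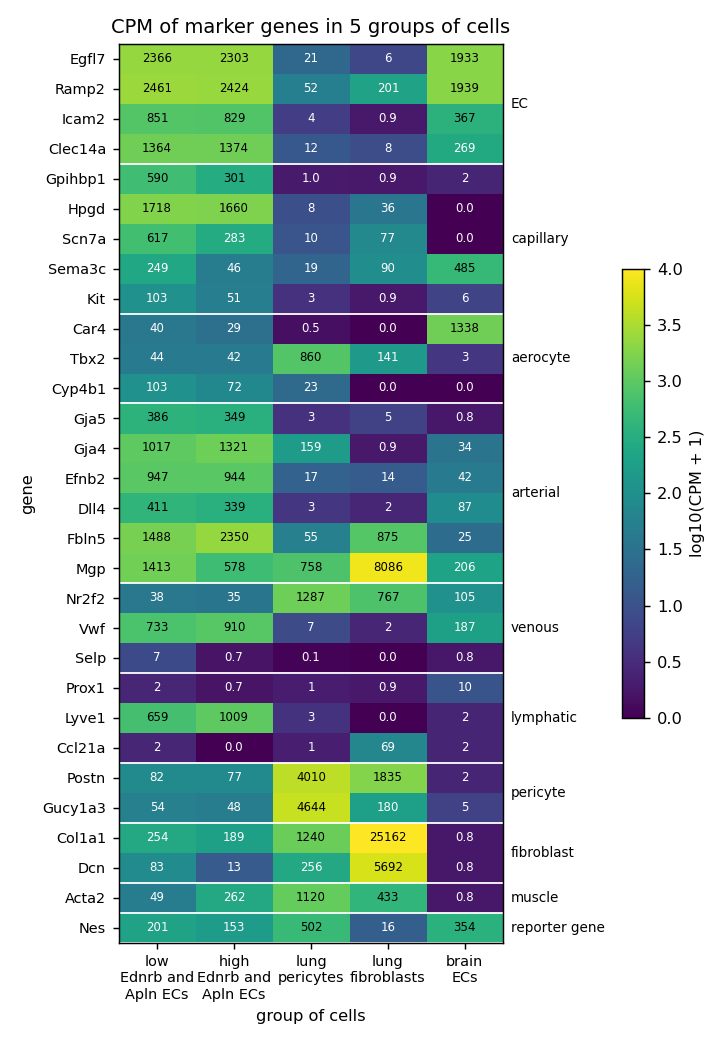
Heat map of summed CPM for marker genes (rows, grouped by cell type) in low and high Ednrb and Apln lung ECs, lung pericytes, lung fibroblasts and brain ECs (columns), coloured by log10(CPM + 1) with the CPM printed in each cell. Capillary and arterial genes such as Hpgd (1718 CPM) and Gja4 (1017 CPM) are high in the low cells, and Car4 (39.6 CPM), Nr2f2 (38.5 CPM) and Prox1 (1.72 CPM) are low there.

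Signalling genes were compared list by list. Of 14 Notch genes, 9 were compared with the non-endothelial cells and 6 were called higher. These were the ligands Dll4 and Jag1 (344 CPM), the receptor Notch4 (162 CPM), the targets Hey1 and Nrarp (316 CPM) and the glycosyltransferase Mfng (154 CPM). The receptor Notch2 (8.61 against 188 CPM) and the target Heyl (5.74 against 191 CPM) were called lower. Of 14 genes of VEGF and angiopoietin signalling, the 9 compared were all called higher, among them the receptors Flt1 (536 CPM), Kdr (328 CPM), Tek (319 CPM) and Nrp1 (948 CPM) and the ligand Vegfa (195 against 31.8 CPM). The 9 passed the limit on mean CPM mainly through the low cells, so that all were higher is no result by itself. Over all genes compared, 13.9% were called higher. A gene low in both groups was not compared, and of those left out Angpt2 was at 11.5 against 43.8 CPM and Pgf at 4.02 against 30.0 CPM. In the BMP list, 8 of 10 genes compared were called higher and Bmp4 lower, with Tmem100 (1786 against 104 CPM) and Id1, a target of BMP signalling (1414 against 139 CPM). Ece1, which makes mature endothelin, was at 629 CPM and the endothelin gene Edn1 at 295 CPM, while the other endothelin receptor, Ednra, gave 22 UMIs (12.6 CPM against 321). Of 13 Wnt and R-spondin genes, 5 were compared, and 2 (Fzd4 and Tspan12) were called higher and 2 (Wnt5a and Tcf7) lower.

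Genes of vessel function were present as well. Of 18 vasoactive genes, 9 were compared, 8 were called higher and Nostrin lower, with Ace, the angiotensin converting enzyme, at 742 against 10.5 CPM and Npr1 at 149 against 7.28 CPM. In the lipid list, 6 of 9 were called higher and 2 (Lpl and Lipg) lower, the former including the fatty acid transporter Cd36 (604 against 4.88 CPM) and the fatty acid binding protein Fabp4 (1199 against 26.2 CPM). Of the 2088 Fabp4 UMIs, 2036 lay in 40 cells described below, and the other low cells were at 34.1 CPM. In the junction list, 7 of 10 were called higher and Jam3 lower, and in the leukocyte adhesion list 3 of 3 (Icam2, Podxl and Cd34). The adhesion molecules of inflamed vessels were low, with Sele at 2 UMIs, Selp at 12, Icam1 at 11 and Vcam1 at 37. Of 30 transcription factors, 19 were compared, 17 were called higher and 2 (Nr2f2 and Tbx2) lower, and Klf2, induced by blood flow, had the most UMIs (4731 UMIs, 2716 against 341 CPM). In the antigen presentation list, 4 of 6 were called higher, all of class I or its loading, and Cd74, a class II gene, lower, with 25 of its 29 UMIs in 1 cell. Of 16 matrix genes, 15 were compared and 7 were called lower, for instance Nid1 (162 against 524 CPM), and 2 higher (Mmrn2 and Timp3). In the solute transport list 3 of 4 were called higher, and Aqp1, a water channel, was at 1157 against 15.5 CPM. Of 18 immediate early genes, 15 were compared, 3 were called higher (Klf2, Klf4 and Ier3) and 5 lower, and Fos was at 386 against 1229 CPM. Of 8 intermediate filament genes, 4 were compared, none was called higher and 2 (Des and Lmna) were lower, with Vim at 3872 CPM.

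Nes, the gene behind the sorted reporter, gave 350 UMIs in the low cells and was at 153 CPM in the high cells, 502 CPM in 2408 lung pericytes, 15.5 CPM in 128 lung fibroblasts and 354 CPM in the brain ECs. With each cell thinned to 2000 UMIs, 27.9% of the low cells had a Nes UMI (interval 22.9 to 33.4%), 25.0% of the high cells (19.7 to 30.9%), 60.7% of the pericytes and 1.56% of the fibroblasts. Thinning left out 15 low cells, 7 high cells and 190 pericytes that were shallower, and without it the shares were 52.6, 51.0, 82.8 and 10.2%. The intervals of the low and high cells overlapped, and both shares were above that of the fibroblasts, taken as the background of free RNA, whose median depth was 9058 UMIs against 5332 in the low cells. The ratio of Nes in low over high cells was 1.31 (interval 1.11 to 1.55) and became 0.987 when Ednrb and Apln were counted at 2000 UMIs per cell.

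The low and high cells were then compared within the gate. Of 3665 genes compared, 14 (0.382%) were called higher in the low cells and 15 (0.409%) lower, and the median ratio of all genes compared was 1.01. The groups were chosen on genes of the same cells, so the values are a description. Sema3c, a guidance cue for vessels and nerves, had the highest ratio, with 433 UMIs in low cells (249 CPM) and 71 in high cells (46.3 CPM), a ratio of 5.37 (lower bound 4.17). Esm1, a secreted proteoglycan of VEGF-stimulated ECs, was at 175 against 42.4 CPM (4.13, interval 3.15 to 5.48), and its ratio was 2.01 when Ednrb and Apln were counted at 2000 UMIs per cell. The mechanically gated channel Piezo2 was at 78.1 against 26.1 CPM, and the matrix protein Mgp at 1413 against 578 CPM (2.44, interval 2.26 to 2.64). The Mgp ratio was 1.54 with no upper limit of genes. It was 0.250 when the arterial-like cluster, described below, was removed from the low cells alone. Without the 22 low and 16 high cells with at least 10 UMIs of the fibroblast list, Mgp was at 802 against 482 CPM, under the limit for a call. That list holds the elastin gene Eln, which is high in the arterial-like cells, and 19 of the 22 low cells were arterial-like. Scn7a, a sodium channel that senses sodium levels, was at 617 against 283 CPM (2.18, interval 1.95 to 2.45). The others included Peg3, Apoe, Ccnd1, Zfp503, Hecw2, Fam63b, Adrb1 and Kit, with ratios from 2.85 to 2.02. Within a cluster of gate cells with high Mgp and Fbln5, described below, the ratio was below 1 for Piezo2 (0.741), Hecw2 (0.562), Scn7a (0.402), Kit (0.582) and Sema3c (0.509, with an interval that spans 1), and the calls of Peg3 (1.16), Apoe (1.47) and Zfp503 (1.39) ended there. In the cluster of gate cells led by Scn7a and Sema3c, Apoe was at 0.780, Mgp at 1.80, Kit at 1.88 and Fam63b at 1.55. With Ednrb and Apln counted at 2000 UMIs, Ccnd1 was at 1.64. Of the 25 genes called and named by the rule, higher or lower, 24 fell short of 2-fold in at least 1 alternative, and Esm1 in none. At 2000 UMIs per cell, Sema3c UMIs were found in 18.5% of low cells (14.3 to 23.4%) and 7.79% of high cells (4.75 to 11.9%), and Esm1 UMIs in 16.8% (12.8 to 21.6%) and 4.92% (2.57 to 8.43%). Both genes were picked for the highest ratios of this comparison, and cells of 1 library are not replicates. That their intervals do not overlap is therefore no test. Mgp UMIs were found in 28.3% and 24.6%, with intervals that overlapped, and 5 cells held 28.6% of the Mgp UMIs of the low group. Of the Apoe UMIs of the low group, 5 cells held 64.9%.

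Of the 15 genes lower in the low cells, 6 rested on a few high cells. A single high cell held 4146 of 4269 Hbb-bs UMIs, 2308 of 2365 Hba-a1 UMIs and 1035 of 1042 Hbb-bt UMIs, the globins of red cells. In the same way 3 high cells held 125, 113 and 101 of the 402 Acta2 UMIs, and 5 high cells held 86.3% of the Tagln UMIs, both being genes of smooth muscle. A single cell also held 82 of the 138 Meg3 UMIs. Without the cells with at least 10 UMIs of the red cell or the smooth muscle list (6 low and 8 high), 20 genes were called higher and 11 lower. The other 9 were found in 55 or more of the high cells each. Atp13a3, a polyamine transporter, was at 264 against 667 CPM (0.396, interval 0.354 to 0.442), with UMIs in 45.2% of low and 72.9% of high cells. The receptor Fgfr3 was at 54.5 against 125 CPM (0.438, interval 0.339 to 0.563), in 25.0% of low and 47.4% of high cells. Wfdc1, a secreted protease inhibitor, had UMIs in 43.3% and 75.3%, and Afap1l2, Isyna1, Nr4a2, Gap43, Cd24a and Emb had ratios from 0.419 upwards to at most 0.5. Within the Mgp and Fbln5 cluster of the gate the calls of Atp13a3 (0.560), Fgfr3 (0.587), Afap1l2 (0.677), Isyna1 (0.596) and Gap43 (0.755) ended, and with Ednrb and Apln counted at 2000 UMIs that of Nr4a2 (0.575).

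**Figure D3:**
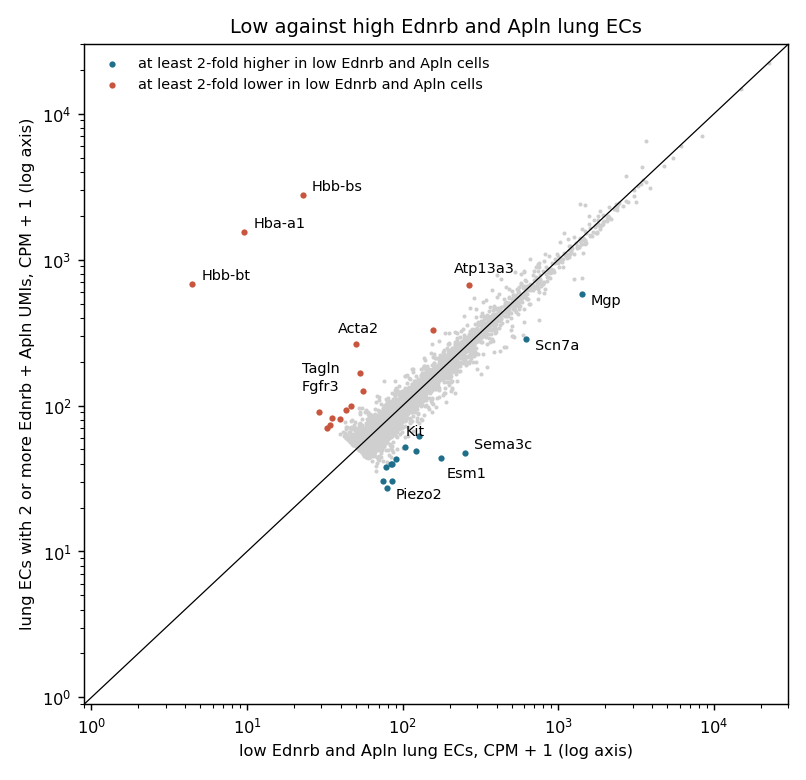
Scatter of CPM + 1 on log axes in low (x) and high (y) Ednrb and Apln lung ECs for the 3665 genes compared, with genes at least 2-fold apart in colour. Most genes lie on the diagonal, Sema3c, Esm1, Mgp and Scn7a lie below it, and the globin genes far above it rest on a single high cell.

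Few genes of the lists were called between low and high cells. Over all 3665 genes compared, 0.382% were called higher in the low cells and 0.409% lower. Most lists this short would hold no call at that share, so a list without a call says little about its genes. Of the general capillary list, 3 of 12 genes compared were called higher (Sema3c, Scn7a and Kit, all 3 below 1 within the Mgp and Fbln5 cluster of the gate), while Cxcl12, a chemokine with the most UMIs of the list, was at 3673 against 6542 CPM (0.561, interval 0.544 to 0.579) and brought the summed list to a ratio of 0.845 although its median gene was at 1.16. Gpihbp1 was at 590 against 301 CPM (1.96, interval 1.75 to 2.19), just under the limit. Of the 14 arterial genes, 1 (Mgp) was called higher, with Fbln5 at 0.633 and Gja5 at 1.11. None of the 6 aerocyte genes compared was called, and Car4 UMIs were found in 4.04% of low and 4.10% of high cells at 2000 UMIs with overlapping intervals (2.10 to 6.95% and 1.98 to 7.41%). None of the genes compared was called in the lists of venous (3), lymphatic (1), pan-endothelial (22), Notch (8), apelin and endothelin (3), BMP (9), Wnt (4), vasoactive (11), lipid (8), antigen presentation (6), leukocyte adhesion (3), junction (10), transcription factor (19), solute transport (5), immediate early (15) and intermediate filament (3) genes. Of the VEGF list 1 of 10 was called (Esm1), and of the matrix list 1 of 13 (Mgp), with Col4a2 at 746 against 383 CPM (1.95) and Col4a1 at 1248 against 737 CPM (1.69), the chains of basement membrane collagen. Within the transcription factors, Gata6 was at 246 against 409 CPM, Klf2 at 2716 against 3726 CPM and Klf4 at 599 against 835 CPM. The summed fibroblast list was at 1324 CPM in low and 867 CPM in high cells, and at 837 CPM in low cells without the 2 cells that held 520 and 348 of its UMIs. Col4a1 (1248 CPM) and Col4a2 (748 CPM) kept their levels without those cells. The smooth muscle list was at 146 CPM in low and 529 CPM in high cells.

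Clustering of the low cells alone gave 3 clusters at the resolution chosen, with similar depth (medians of 5780, 5068 and 5154 UMIs). The genes that separate clusters were used to make them, so their values are a description. The first cluster, of 142 cells (45.5%), was led by Scn7a, Sema3c, Piezo2, Adrb1, Arap2, Ntrk2, Prx, Adam23, Nostrin and Kit, and is called general capillary-like, since 3 of these are capillary markers and 12 of the 14 markers were found in at least 20% of its cells. Among its leading genes Prx is an aerocyte marker, and 7 of 12 aerocyte and 11 of 14 arterial markers were found in it as well. The second, of 130 cells (41.7%), was led by Mgp, Gkn3, Ctsh, Eln, Cytl1, Map1b, Fbln5, Vwf, Kcne3 and Tmem158, and is called arterial-like, since 2 of these are arterial and 1 venous (Vwf) and 14 of 14 arterial markers were found. The third, of 40 cells (12.8%), was led by Fabp4, Rbp7, Csf2rb, AW112010, Igfbp3, Meox2, Hoxd8, Lrg1, Csf2rb2 and Apoe, and takes no name, since none of these is a marker of a vessel type list. In it 13 of the 14 arterial markers were found too, so the count of markers found did not set the arterial-like cells apart.

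Promoter windows of a leading gene of each cluster and of Ednrb are shown, because these genes divide the cells described here. The windows run from 250 bases before to 50 bases after the RefSeq transcription start on GRCm38.p6, the build of the mm10 alignment, and 11 of 17 genes asked for had one. The Scn7a window is chr2:66784861-66785160 (minus strand), that of Fbln5 chr12:101819070-101819369 (minus strand, the first of 2 starts), that of Hoxd8 chr2:74704365-74704664 (plus strand) and that of Ednrb chr14:103843652-103843951 (minus strand). The genes themselves span chr2:66673425-66784914 (Scn7a), chr12:101746565-101819055 (Fbln5) and chr14:103814625-103844402 (Ednrb) in GENCODE M21. Capitals mark the letters AGGAAG or, on the other strand, CTTCCT, a core bound by ETS factors such as Erg and Fli1. One match was found in the Scn7a window and 1 in the Fbln5 window shown, and these letters are not in the window of the second Fbln5 start (chr12:101818435-101818734) nor in the Hoxd8 and Ednrb windows. Among the windows not shown, those of Apln and Gja5 held 1 match each, and those of Sema3c, Hoxd3, Hoxa5, Cldn5 and Nes held 0. Of all 32851 windows of 300 bases, 35.4% hold these letters.
Scn7a: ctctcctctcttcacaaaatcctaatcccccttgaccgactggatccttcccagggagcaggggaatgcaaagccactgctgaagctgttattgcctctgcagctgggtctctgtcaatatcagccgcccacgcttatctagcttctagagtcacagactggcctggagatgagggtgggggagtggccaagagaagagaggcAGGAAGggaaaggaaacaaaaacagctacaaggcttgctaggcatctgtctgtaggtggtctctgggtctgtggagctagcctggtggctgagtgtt
Fbln5: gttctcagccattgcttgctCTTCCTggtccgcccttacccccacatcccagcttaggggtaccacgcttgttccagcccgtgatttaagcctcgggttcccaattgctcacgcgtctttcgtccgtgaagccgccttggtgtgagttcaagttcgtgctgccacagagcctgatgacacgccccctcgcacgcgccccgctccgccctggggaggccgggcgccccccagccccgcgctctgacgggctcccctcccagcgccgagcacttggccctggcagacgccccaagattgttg
Hoxd8: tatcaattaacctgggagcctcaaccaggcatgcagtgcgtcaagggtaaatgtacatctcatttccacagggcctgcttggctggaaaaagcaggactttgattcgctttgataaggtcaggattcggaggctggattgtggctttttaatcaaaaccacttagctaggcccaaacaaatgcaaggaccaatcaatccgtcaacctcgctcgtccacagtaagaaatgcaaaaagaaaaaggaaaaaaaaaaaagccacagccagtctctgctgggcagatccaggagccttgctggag
Ednrb: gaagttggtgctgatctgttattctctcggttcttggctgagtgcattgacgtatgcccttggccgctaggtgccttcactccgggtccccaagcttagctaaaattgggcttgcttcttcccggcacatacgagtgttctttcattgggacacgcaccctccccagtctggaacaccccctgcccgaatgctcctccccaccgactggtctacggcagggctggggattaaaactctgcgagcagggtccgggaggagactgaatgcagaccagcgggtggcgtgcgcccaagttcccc

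In the general capillary-like cells, Scn7a was at 1203 CPM and found in 95.1% of cells, against 38.2 CPM and 14.6% in the arterial-like cells and 4.63 CPM in 1 cell of the third cluster. Gpihbp1 followed with 917, 55.0 and 895 CPM, and Cd36 with 988, 79.4 and 644 CPM. Hpgd was at 2782, 861 and 27.8 CPM and Adrb1, the beta-1 adrenergic receptor, at 238, 22.9 and 0 CPM. Car4, at 70.0 CPM, was found in 9.86% of the general capillary-like cells and in none of the arterial-like cells. In the third cluster it was at 37.1 CPM, in 4 of the 40 cells (10.0%). Arterial genes were not absent from this cluster, with Efnb2 at 938 CPM in 94.4% of cells and Gja4 at 982 CPM in 85.9%.

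In the arterial-like cells, Fbln5 was at 3321 CPM in 99.2% of cells against 320 CPM in the general capillary-like cells. Vwf was at 1635 against 164 CPM, Gja5 at 731 against 210 CPM, Hey1 at 644 against 323 CPM and Eln, the elastin gene, at 476 against 24.1 CPM. Mgp was at 3518 CPM but found in 61.5% of cells, fewer than Fbln5 or Vwf (95.4%). It was at 8086 CPM in lung fibroblasts, and the fibroblast list summed to 2061 CPM in the arterial-like cells against 778 CPM in the general capillary-like cells, the smooth muscle list to 206 against 58.6 CPM. Without the cells with at least 10 fibroblast UMIs, 19 of the 130 and 2 of the 142, the fibroblast list was at 618 against 366 CPM, Fbln5 at 3223 against 319 CPM, Mgp at 2124 against 30.5 CPM and Eln at 212 against 23.5 CPM. The fibroblast list itself holds Eln, a leading gene of the arterial-like cells. The falls of Eln and of the list therefore follow from how the cells were picked. Of the 5 low cells called doublets, 4 were arterial-like. Lyve1 was at 1049 CPM in the arterial-like cells, in 80.0% of them, against 528 CPM in the general capillary-like cells and 0 UMIs in the third cluster, where 3 UMIs would be 13.9 CPM. Nes was at 139 CPM in the arterial-like cells against 239 CPM in the general capillary-like cells and 236 CPM in the third.

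The 40 cells of the third cluster held less of several genes that the other clusters shared. Their gate genes, which chose them, were at 1502 CPM for Cldn5 in 75.0% of cells, below the 4430 and 4652 CPM of the others, at 1451 CPM for Pecam1 and at 1145 CPM for Cdh5. Plvap, which the gate had not used, was at 723 CPM in 70.0% of the cells, and 0 of them were called doublets. Fabp4 was at 9437 CPM in 92.5% of the cells, against 49.4 and 13.7 CPM in the others, and Rbp7, a retinol binding protein, at 1581 CPM against 3.44 and 16.8 CPM. Foxf1, a transcription factor of lung mesenchyme and lung ECs, gave 1 UMI in 1 of the 40 cells (4.63 CPM), against 947 and 353 CPM in the other clusters. Hoxa5 was at 13.9 CPM against 358 and 366 CPM, and the 10 Hoxa genes with counts summed to 37.1 CPM against 390 and 504 CPM. Conversely the 3 Hoxd genes with counts, Hoxd3, Hoxd8 and Hoxd9, summed to 64 UMIs (297 CPM) in the third cluster and to 0 UMIs in both other clusters. The 9 Hoxb genes with counts differed less, at 60.3 CPM against 80.4 and 91.6 CPM, and Hoxc genes gave 0 UMIs in all 3 clusters. Calcrl was at 102 CPM against 2173 and 1281 CPM, Ace at 111 against 845 and 812 CPM, and H2-K1 at 1738 against 308 and 365 CPM. Vcam1 was at 69.5 CPM, in 8 of the 40 cells, against 0 and 33.6 CPM. The 16 matrix genes summed to 14600 CPM against 7556 and 7871 CPM. Markers of other cells were not lowest here, with the fibroblast list at 1289 CPM against 778 and 2061 CPM and the smooth muscle list at 315 CPM against 58.6 and 206 CPM. Des was at 116 CPM against 8.04 and 13.7 CPM, but in 3 cells, as was Dcn (241 CPM), and the 21 Lum UMIs (97.3 CPM) lay in 1 cell. Without the 1 cell with at least 10 fibroblast UMIs the fibroblast list was at 421 CPM, the smooth muscle list at 218 CPM and the matrix genes at 14778 CPM. Hox genes mark position along the body axis, and their names here were taken after the values were seen.

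The same division appeared in the high cells, which had not entered this clustering. With a limit of 10 Fabp4 UMIs, also set after the values were seen, 17 high cells passed and 234 did not. Of the 17, 1 had a Foxf1 UMI, 5 a Hoxd3 UMI and 3 a Hoxd8 UMI. Of the 234, 202 had a Foxf1 UMI, 0 a Hoxd3 UMI and 1 a Hoxd8 UMI. In the low cells the same limit took 35 cells, 33 of them of the third cluster, with a Hoxd3 UMI in 13, against 1 of the 277 cells below the limit. Hpgd gave 0 UMIs in the 17 high cells and UMIs in 207 of the 234. No test was made, since all cells are of 1 library.

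**Figure D4:**
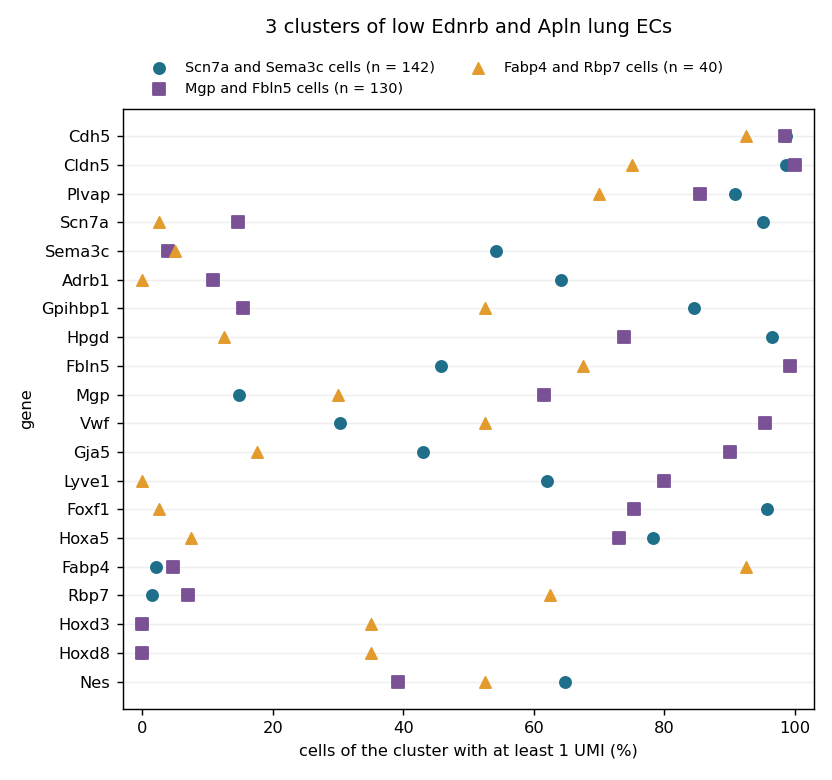
Percent of cells with at least 1 UMI (x axis) for 20 genes (y axis) in the 3 clusters of low Ednrb and Apln lung ECs, with circles for the 142 Scn7a and Sema3c cells, squares for the 130 Mgp and Fbln5 cells and triangles for the 40 Fabp4 and Rbp7 cells. Scn7a is found in 95.1% of the Scn7a and Sema3c cells, Fbln5 in 99.2% of the Mgp and Fbln5 cells, Foxf1 and Hoxa5 are found in 1 and 3 of the 40 Fabp4 cells, and Hoxd3 and Hoxd8 in 35.0% of them and in 0 of the others, where circles lie under the squares.

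Clustering of the whole gate placed low and high cells side by side. A cluster with high Mgp and Fbln5 held 270 cells, 131 of them low (48.5%, interval 42.4 to 54.7%). The smooth muscle gene Acta2 was among its leading genes, and it held 11 of the 13 gate cells called doublets, against 2 and 0 in the other clusters. A cluster led by Scn7a and Sema3c held 236 cells, 142 of them low (60.2%, interval 53.6 to 66.5%), and a cluster with high Fabp4 and Rbp7 57 cells, 39 of them low (68.4%, interval 54.8 to 80.1%). The last was also led by globin genes, whose UMIs rest on the single high cell above. No cluster was made up of low cells alone, and the median cell of the 3 clusters held 2, 1 and 1 UMIs of Ednrb and Apln. Within the Mgp and Fbln5 cluster the ratio of low over high cells was 10.9 for Esm1 (interval 4.70 to 31.1), 3.30 for Mgp and 0.402 for Scn7a (0.248 to 0.632). Sema3c gave only 7 UMIs in its low cells and 17 in its high cells, a ratio of 0.509 with an interval of 0.178 to 1.29 that spans 1. Within the Scn7a and Sema3c cluster it was 3.08 for Esm1 (2.29 to 4.22), 1.80 for Mgp (0.972 to 3.52), 2.06 for Scn7a (1.83 to 2.33) and 5.55 for Sema3c (4.16 to 7.53). Scn7a thus had opposite directions in these 2 clusters, whereas Esm1 was higher in the low cells of both and Atp13a3 lower in both (0.560 and 0.254). The clusters were made from variable genes of the same cells, so none of this was tested.

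ECs of the brain library were chosen by the identical rule, which took 305 of 307 brain gate cells (99.3%), with 1.64 CPM of Ednrb. They held 1221210 UMIs with a median of 3866 per cell. Of 3817 genes compared, 344 (9.01%) were called higher in the low lung cells and 367 (9.61%) lower. Tissue and library cannot be told apart here. The genes highest in lung against brain were Aqp1 (1157 against 0.819 CPM), Fabp4 (1199 against 1.64 CPM, and 34.1 CPM without the third cluster), Hpgd (1718 CPM against 0 UMIs, at least 700-fold higher with 3 UMIs as the floor over the group), Myzap, Gja5 (386 against 0.819 CPM), Lyve1 (659 against 1.64 CPM), Gpihbp1 (590 against 1.64 CPM), Col1a1, Scn7a (at least 251-fold higher), Cd36 (at least 246-fold higher), Pcsk5 and Fbn1. Col1a1 is a fibroblast gene, and the fibroblast list stood at 1324 CPM in the low lung cells, or 837 CPM without 2 cells, and at 42.6 CPM in the brain ECs. Of the arterial list, 10 of 13 genes compared were called higher in lung and 0 lower, with Efnb2 at 947 against 41.8 CPM, Fbln5 at 1488 against 24.6 CPM and Sox17, which was not called, at 695 against 441 CPM. Of the Notch list, 5 of 8 were called higher, of the BMP list 4 of 9 (among them Tmem100, 1786 against 19.7 CPM, and Smad6, 382 against 38.5 CPM), and of the immediate early list 8 of 15 (Nr4a1, for example, at 172 against 9.83 CPM). Of the general capillary list 6 of 12 were called higher, but not Sema3c, at 249 CPM in lung and 485 CPM in brain.

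Transporters of the blood-brain barrier were low in the lung cells. Of 15 solute transport genes, 14 were compared, 13 were called lower in lung and 1 (Aqp1) higher, where 9.61% of all genes compared were called lower. Most passed the limit on mean CPM through their level in brain, since only 5 of the 15 were compared between low and high lung cells. The count of 13 thus rests largely on that limit, and the levels are given next. The organic anion transporters Slco1a4 and Slco1c1 were at 1.72 against 2209 CPM and 3.44 against 1756 CPM, the glucose transporter Slc2a1 at 13.2 against 1741 CPM, the monocarboxylate transporter Slc16a1 at 1.15 against 922 CPM and the amino acid transporter Slc7a5 at 1.15 against 639 CPM. Slc22a8 and the transcription factor Foxq1 gave 0 UMIs in the lung cells, which gives Slc22a8 a level at least 355-fold lower and Foxq1 one at least 366-fold lower than in brain. Slc38a5, Slc38a3, Ccdc141 and the globins Hba-a2 and Hbb-bs were also among the 12 lowest ratios, and the red cell list was at 35.0 CPM in lung and 11516 CPM in brain. In the Wnt list, 5 of 7 genes compared were called lower and 1 (Fzd4) higher, with Lef1, a target and mediator of Wnt signalling, at 3.44 against 423 CPM. Car4 was at 39.6 against 1338 CPM. Of the pan-endothelial list, 4 of 21 were called higher and 5 lower, the latter being Flt1 (536 against 3307 CPM), Kdr (328 against 856 CPM), Ly6c1, Ly6a and Fli1. No gene of the antigen presentation list was called higher, and 1 of 6 (H2-T23, 84.4 against 232 CPM) was called lower. Of the lipid list 4 of 8 were called higher and Mfsd2a, which carries lipids across the blood-brain barrier, at least 238-fold lower (0 UMIs against 409 CPM). Of the transcription factors, 4 of 22 were called higher (Foxf1, Hey1, Gata6 and Bcl6b) and 6 lower. The other lists gave vasoactive genes with 5 higher and 2 lower of 10, VEGF genes with 2 and 3 of 11, junction genes with 3 and 3 of 10, matrix genes with 4 and 0 of 13, intermediate filament genes with 2 and 1 of 4, aerocyte genes with 1 and 3 of 7 and venous genes with 2 and 2 of 5. Leukocyte adhesion genes gave 1 higher of 3 (Icam2), lymphatic genes 1 of 2 (Lyve1), and apelin and endothelin genes 0 of 3.

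**Figure D5:**
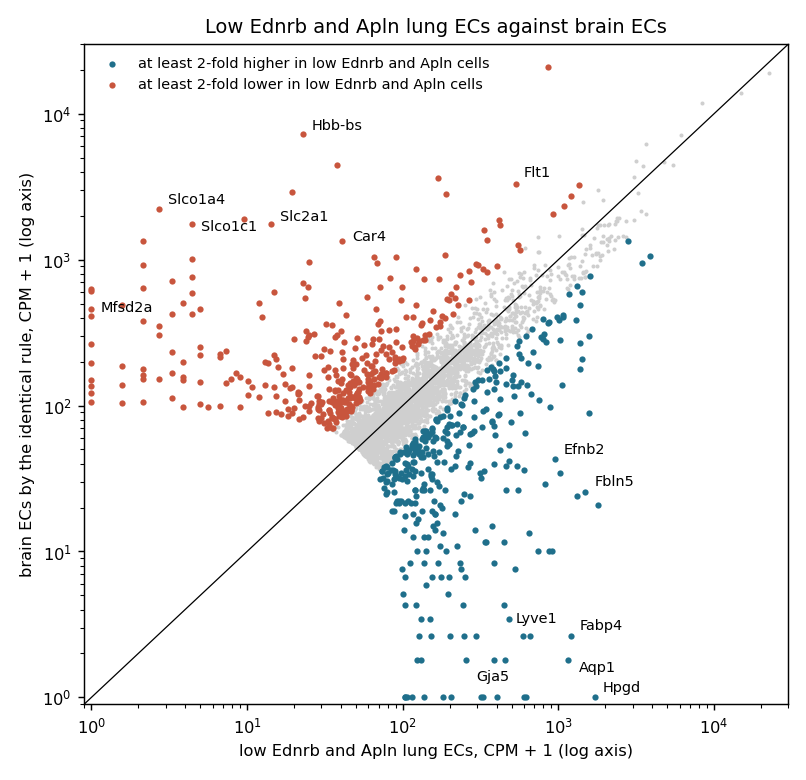
Scatter of CPM + 1 on log axes in low Ednrb and Apln lung ECs (x) and brain ECs chosen by the identical rule (y) for the 3817 genes compared, with genes at least 2-fold apart in colour. Hpgd, Aqp1, Lyve1 and Gja5 lie at the bottom right, and the transporters Slco1a4, Slco1c1 and Slc2a1 with Car4 at the upper left.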

How the data were processed

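Nes-GFP+ cells of lung and brain were each made into 1 library with the 10x Chromium 3′ v3 chemistry. The submitters' processing notes name bcl2fastq 2.19.1.403, UMI-tools 1.0.0, STAR 2.7.1a (mm10) and featureCounts 1.6.4. The authors deposited raw UMI counts per gene and cell barcode. How barcodes were selected, and with which gene annotation reads were counted, is not given in the sources used here. The lung table held 5981 barcodes and 36816962 UMIs.

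Here, cells with more than 200 and fewer than 4000 genes and less than 40% mitochondrial UMIs were kept, called doublets included. UMIs were summed per group and scaled to CPM. Ratios have 95% intervals (exact binomial, conditional on the summed UMIs), shares have Clopper-Pearson intervals, and a fold against 0 UMIs uses a floor of 3 UMIs over the group. No test was run, because each tissue was 1 library and cells are not replicates. For shares of cells, each cell was thinned to 2000 UMIs. Low cells were clustered with Seurat 5.3.0 in R 4.3.3 (2000 variable genes without the gate genes, 15 principal components, resolution 0.5), and the whole gate at resolution 0.3. Scrublet (scanpy 1.11.5) called doublets. A cluster was named after a vessel list that had the most of its 10 leading genes and at least 3 markers in 20% of its cells. Genes named are the 12 highest and 12 lowest ratios of each comparison (gate, mitochondrial and ribosomal genes left out), the genes of each list that were called or had most UMIs, and Nes. A few genes that this rule names are not reported here. The ratio code was tested on simulated data. Of 320 symbols in 30 lists, 314 had lung counts. Gene positions are from GENCODE M21 (GRCm38). The members and lists were chosen with earlier results of these data known.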

Additional observations from a re-analysis of the deposited data

How the results depend on the processing

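The number of low cells ran from 227 (cells with at least 4000 UMIs) to 342 (no upper limit of genes), and their share of the gate from 51.8 to 57.6%. No paired analysis was possible because each tissue is 1 library. Causes of the changes below were not tested, except that a lower filter compares more genes.

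As reported, 14 genes were higher and 15 lower in low than in high cells. The number higher was 9 with no upper limit of genes and 27 with 0 against at least 4 Ednrb and Apln UMIs. It was 68, with 68 lower, when the arterial-like cluster was removed from the low cells alone. With a mean CPM of at least 10 the counts were 117 higher and 74 lower against high cells, 1151 and 1236 against non-endothelial cells, and 934 and 959 against brain ECs. With no filter they were 2455 and 2149, 2960 and 10243, and 3760 and 3890. Resolution 0.8 gave 6 clusters of low cells. The ratios of low over high cells given next were at least 2-fold from 1 and crossed 1. The immune list was at 0.419 with at least 10 UMIs of the gate genes and at 0.438 with at least 4000 UMIs. With 0 against at least 4 UMIs, Hbb-bt was at 1.12 and Hba-a1 at 1.26. With Ednrb and Apln counted at 2000 UMIs, the smooth muscle list was at 1.63, Acta2 at 1.51 and Tagln at 1.88. Without the arterial-like cluster, the neural and Schwann list was at 0.806 and Mgp at 0.250.

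The following were chosen after seeing the data. Without the cells rich in red cell or smooth muscle UMIs, the smooth muscle list was at 1.11, Hbb-bt at 1.28 and Acta2 at 1.22. Within the Mgp and Fbln5 cluster of the gate, the red cell list was at 1.04, Sema3c at 0.509, Piezo2 at 0.741, Scn7a at 0.402, Hecw2 at 0.562, Hba-a1 at 1.65 and Kit at 0.582. Without cells with at least 10 UMIs of the fibroblast list, the smooth muscle list was at 1.66, Acta2 at 1.40, Meg3 at 1.69 and Tagln at 2.03. Within the Scn7a and Sema3c cluster, 44 genes were higher and 53 lower, with Apoe at 0.780 and Tagln at 1.08. Of 463 list ratios recomputed, 48 (of 20 lists) crossed 1, and 41 of these started less than 2-fold from it. Within the Mgp and Fbln5 cluster, for example, the aerocyte list went from 1.26 to 0.872, lipid handling from 1.12 to 0.738 and the arterial list from 0.947 to 1.32. Of 416 named gene ratios, 19 crossed 1, all but Nes from at least 2-fold. Of 25 named genes called, 16 lost the call within the Mgp and Fbln5 cluster, 9 with no upper limit of genes, 9 with Ednrb and Apln counted at 2000 UMIs, 7 within the Scn7a and Sema3c cluster and at most 6 in any other alternative.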
